A study of Mus musculus with 6 samples.

Results

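The mitochondrial ribosomal protein genes are the nuclear genes Mrpl and Mrps, whose products make up most of the protein of the ribosome inside mitochondria. They were found as the array probes whose transcript accession belongs, in a RefSeq table of mouse genes, to a symbol that starts with Mrpl or Mrps followed by a number. The array carried 100 such probes for 78 genes, which are all 78 protein-coding genes of that name in the table, and 76 of them were among the 21474 genes that could be tested. Of these 21474, 6389 had no symbol and are single accessions or probe names, counted as genes throughout. Of the 78 genes, 51 encode proteins of the large subunit and 26 proteins of the small subunit. Mrps36 was kept in neither group, since its product is now assigned to the 2-oxoglutarate dehydrogenase complex.

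Mitochondria translate the few messenger RNAs of their own genome, all for subunits of the oxidative phosphorylation complexes, on a ribosome whose ribosomal RNAs are made in the organelle and whose proteins are all imported from the cytosol. Some of these proteins descend from bacterial ribosomal proteins, and others are found only in mitochondria. Podocytes are postmitotic epithelial cells of the kidney filter, and human variants in several of these genes cause disorders of oxidative phosphorylation.

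RNA came from mouse podocytes immortalised with a temperature-sensitive SV40 T antigen. They were grown at 33 °C and then differentiated for 10 days at 37 °C. The 6 one-colour arrays fall into 3 groups of 2, described by the submitters as biological replicates: shTug1 clone 2, shTug1 clone 3 and shControl. All cells carried a pGIPZ lentiviral short hairpin construct, directed in the first 2 groups against Tug1, a long noncoding RNA, and in shControl a scrambled sequence. Each shTug1 label names a single clone, so its 2 arrays share that clone's origin, whereas nothing says whether the shControl cells are a clone. All 4 arrays labelled shTug1 were on 1 slide and both shControl arrays on another, which means that slide and hairpin cannot be told apart wherever shControl is the comparison. The groups were made to compare gene expression after a hairpin against Tug1 with that after a scrambled one. In bulk RNA, fewer cells of a type and less RNA per cell cannot be told apart.

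Values below are log2 signals relative to the 75th percentile of the gene spots on the same array. That percentile lay at an intensity of 949.3 to 1055 on the clone 2 arrays, 569.2 to 831.6 on the clone 3 arrays and 324.3 to 363.3 on the shControl arrays, and no gene spot was saturated. Tug1 itself read −1.86 and −1.88 on the clone 2 arrays, −3.10 and −3.23 on the clone 3 arrays and −2.88 and −2.49 on the shControl arrays. Its signal was thus above both controls on the arrays labelled clone 2, against that label, so groups are named here by their labels, and no difference is read as an effect of less Tug1. Of 14 podocyte markers, 12 were well above background on all 6 arrays, among them Nphs1, Wt1 and Synpo. Nphs1 (−4.71 to −2.34) and Wt1 (−3.63 to −1.985) were dim on all of them. The summed linear signal of the podocyte markers, in units of the 75th percentile, was 64.1 to 72.9 on the clone arrays and 123 to 141 on the shControl arrays. Markers of mesangial and stromal cells (4 of 8 well above background on all arrays, Pdgfra and Des on none) summed to 212 to 317 on the clone arrays and 551 to 562 on the shControl arrays. Immune markers (4 of 5 measured ones on all arrays) summed to 3.45 to 5.59 on the clone arrays and 14.2 to 29.6 on the shControl arrays. Endothelial markers (3 of 6, Tek and Emcn on none) summed to 0.987 to 1.31 in the clones and 1.48 to 2.57 in shControl, and tubular and parietal markers (4 of 8, Slc12a1 on none) to 10.3 to 12.8 in the clones and 15.7 to 22.9 in shControl. All 5 lists were thus lower on the clone arrays by their sums, in which the brightest probes weigh most. For the mean of the clones, the median log2 fold change of all genes was −0.64. Tested markers had medians of −0.96 (podocyte), −0.85 (mesangial and stromal), −1.21 (immune), −0.36 (endothelial) and −0.69 (tubular and parietal). Single tubular and parietal markers ran from −1.22 to 2.06. The part of these shifts in the results below was not tested.

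The ribosomal protein genes were spread over a wider range on the control arrays than on the clone arrays. The interquartile range of the 76 genes was 1.90 and 2.02 log2 units on the clone 2 arrays, 2.11 and 2.15 on the clone 3 arrays, and 4.14 and 3.07 on the shControl arrays. Their median signal was 3.25 and 3.18 in clone 2, 4.06 and 3.82 in clone 3, and 4.81 and 4.06 in shControl. Of the 76, 74 were well above background on all 6 arrays. Mrpl37 was so on 5 arrays, 1 of them a control, and Mrps5 on the 4 clone arrays and 0 of 2 control arrays. The 2 genes that could not be tested were Mrpl21, not well above background on any array, and Mrps16, whose only probe was marked as an outlier on shControl replicate 2. Mrps16, a small-subunit protein, read 3.85 and 3.47 in clone 2, 4.67 and 4.35 in clone 3 and 5.89 on the remaining control array.

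The genes moved in both directions on the arrays labelled shTug1. For the mean of the clones against shControl, limma called 13 genes higher and 32 lower at an adjusted p under 0.05, and 31 did not pass. The rises included Mrpl37, Mrpl9 and Mrpl42 of the large subunit and Mrps5, Mrps9 and Mrps27 of the small subunit. The falls included Mrpl49, Mrpl22 and Mrpl58 of the large subunit and Mrps34 of the small subunit. Among all genes tested 10.2% were higher and 30.4% lower (40.6% in either direction), against 17.1% and 42.1% of the mitochondrial ribosomal protein genes. All 4 clone arrays lay above both controls for 16 of the 76 and below both for 39, against 12.3% and 43.1% of all genes. The members' median log2 fold change was −0.90 and that of all genes −0.64, a difference of −0.26, which turned positive with quantile normalization (0.11), normexp background correction (0.02) and the deposited value table (0.15). Relative to the median gene, the 13 rises ran from 1.80 to 3.96 and the 32 falls from −1.34 to −0.31.

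How many genes passed, above all among the falls, depended on scaling and on single arrays. Against 13 higher and 32 lower, quantile normalization gave 17 and 3, and the deposited values 16 and 6. Signals with no scaling between arrays gave 22 and 0. By limma at an unadjusted p under 0.05 those signals gave 28 and 0, against 39.3% and 1.41% of all genes. At an adjusted p under 0.05, 11.5% of all genes tested were higher and 14.6% lower with quantile normalization. These shares were 10.9% and 20.5% with the deposited values, and 29.2% and 0.554% with no scaling. The share of members called lower was thus above that of all genes with the scaling used here and below it with quantile normalization and the deposited values. All 32 falls shrank by over 1.5 times with each of those 2, and none of the rises measured moved by as much. Without shControl replicate 1 the counts were 11 and 11 (all genes 7.63% and 15.9%), without clone 2 replicate 1 they were 10 and 18 (8.5% and 18.8%), and without clone 2 replicate 2 they were 11 and 18 (8.9% and 21.7%). Without shControl replicate 2 there were 15 rises and 48 falls (15.1% and 51.4%). Leaving out shControl replicate 1 moved 5 of the 13 rises and 19 of the 32 falls by over 1.5 times. Leaving out clone 3 replicate 1 left 6 rises (Mrpl1, Mrpl9, Mrpl37, Mrpl42, Mrps5 and Mrps27) and 2 falls (4.06% and 3.09%). Without clone 3 replicate 2 the members' calls were lost, as were most calls among all genes. The members' median relative to all genes was then −0.242, beside −0.258 with all arrays. The 13 rises kept a positive fold change under each of the 15 alternatives that measured them, and the 32 falls kept a negative one under all but the signals with no scaling, where 21 of 32 did.

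**Figure D1:**
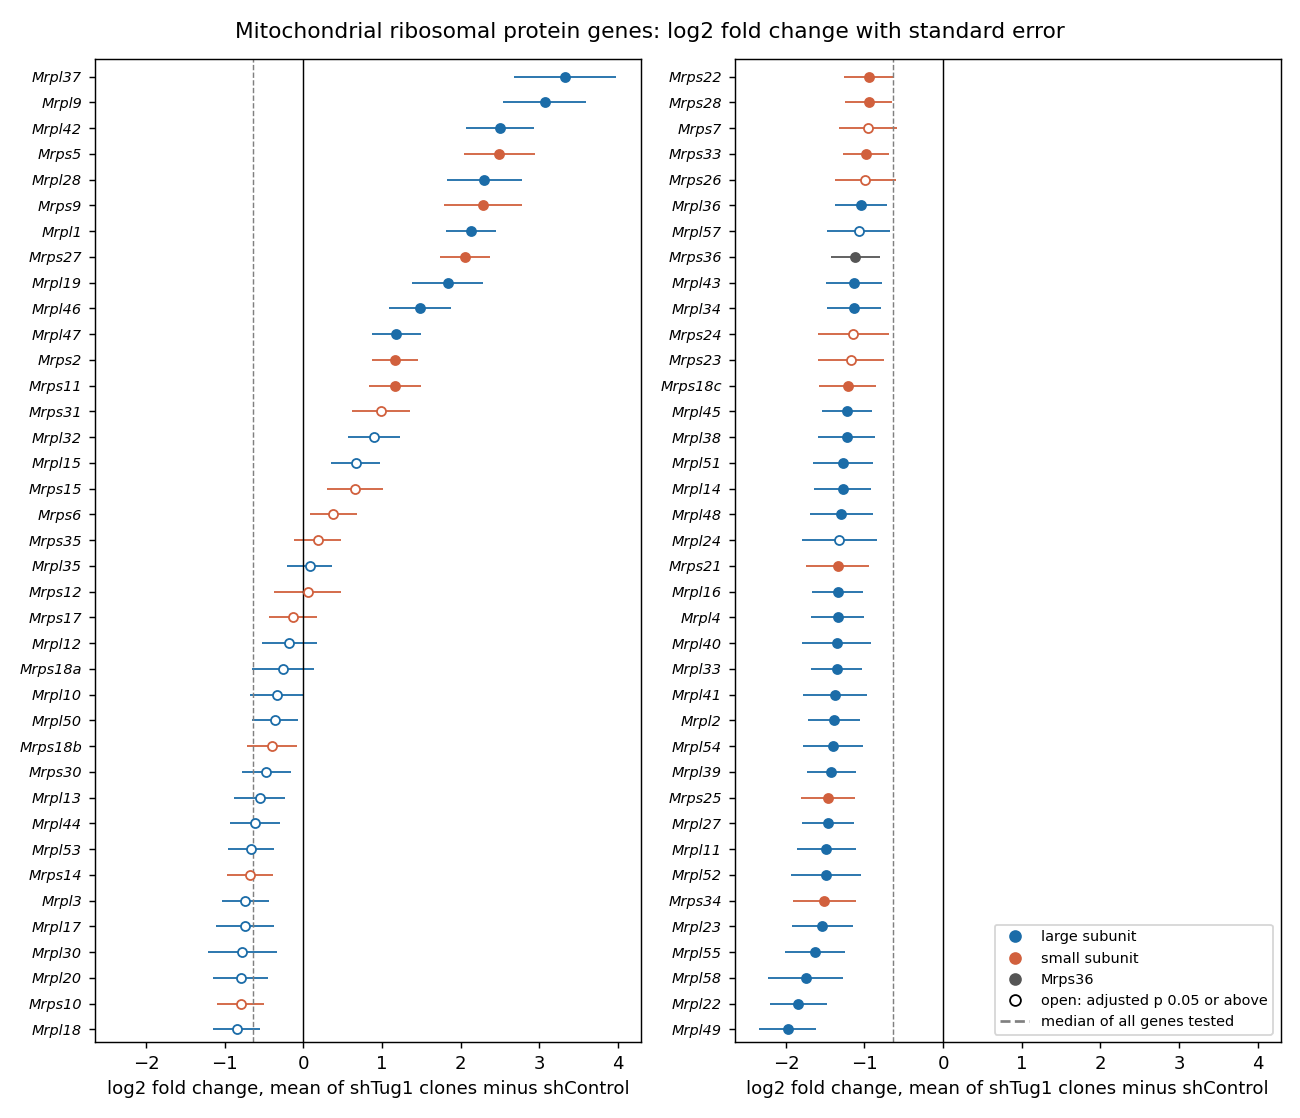
Log2 fold change (mean of the shTug1 clones minus shControl) with its standard error for each of the 76 tested genes, ordered from highest to lowest over both panels; filled points passed an adjusted p of 0.05, colours give the subunit, and the dashed line is the median of all genes tested. The 13 filled points on the right of 0 run from 1.16 to 3.33, and the 32 on the left lie between −1.98 and −0.94.

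**Figure D2:**
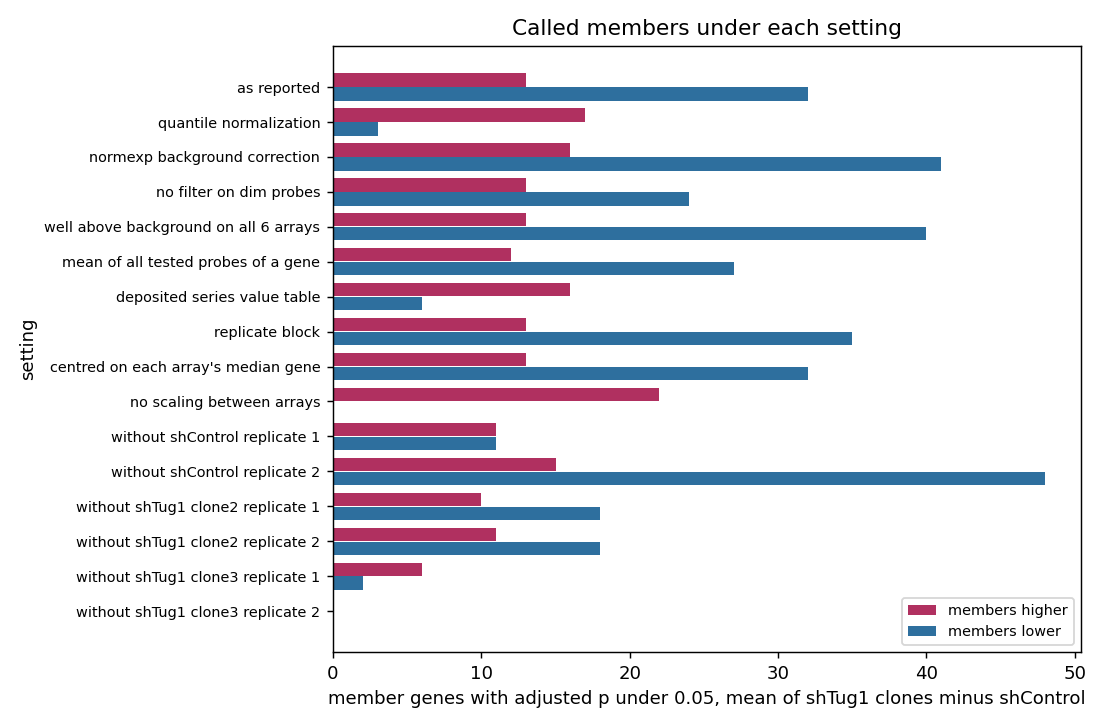
Number of mitochondrial ribosomal protein genes with an adjusted p under 0.05, higher or lower for the mean of the shTug1 clones minus shControl, as reported and under each alternative. The bars for lower genes range from 0 to 48, those for higher genes from 0 to 22.

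Large rises were seen for genes of both subunits. Mrpl37, a mitochondrion-specific protein of the large subunit, read −0.04 and −0.45 in clone 2, −1.31 and −0.36 in clone 3, and −5.09 and −2.65 in shControl. All 4 clone arrays were above both controls, which themselves lay over 2 log2 units apart and of which 1 was well above background. Its log2 fold change was 3.33 (SE 0.65, adjusted p = 0.0144). Mrpl37 entered the test only through the clone arrays, so this value, its call and its rank use a control signal not well above background. Mrpl9, a relative of bacterial L9, read 0.74 and 0.43 in clone 2, 0.49 and 0.42 in clone 3, and −3.55 and −1.54 in shControl. The 4 clone arrays were close together, and both controls were below them, and the log2 fold change was 3.07 (SE 0.53, adjusted p = 0.0122). Mrpl42, another mitochondrion-specific large-subunit protein, read 0.32 and 0.08 in clone 2, −0.00 and 0.28 in clone 3, and −3.04 and −1.62 in shControl, and Mrpl28, a relative of bacterial L28, read 0.60 and 0.08 in clone 2, 0.21 and 0.40 in clone 3, and −2.82 and −1.15 in shControl. Here too the clone arrays were near each other and clear of both controls, with log2 fold changes of 2.50 (adjusted p = 0.0121) for Mrpl42 and 2.30 (adjusted p = 0.016) for Mrpl28. Without shControl replicate 1 Mrpl37 had 2.11 (adjusted p = 0.0391) and Mrpl28 1.47 (adjusted p = 0.0372).

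Rises with the lowest adjusted p values were those of Mrpl1 and Mrps27. Mrpl1, a relative of the bacterial protein that forms the mobile L1 stalk, read −0.08 and −0.00 in clone 2, 0.38 and 0.38 in clone 3, and −2.32 and −1.60 in shControl. It rose by 2.13 (SE 0.32, adjusted p = 0.00977), the lowest adjusted p among the 76 genes. Mrps27, a mitochondrion-specific protein of the small subunit with pentatricopeptide repeats, read −1.33 and −1.80 in clone 2, −1.28 and −0.87 in clone 3, and −3.57 and −3.18 in shControl. The groups did not overlap, and its log2 fold change was 2.06 (SE 0.32, adjusted p = 0.0102). Mrps9, related to bacterial S9, read 1.24 and 0.73 in clone 2, 1.80 and 1.75 in clone 3, and −1.79 and 0.00 in shControl, and rose by 2.28 (adjusted p = 0.0171) although its higher control was within 1 log2 unit of the lower clone 2 array, and without shControl replicate 1 its value was 1.38 (adjusted p = 0.0377). Mrps5, related to bacterial S5, read −2.15 and −1.86 in clone 2, −2.73 and −3.11 in clone 3, and −5.72 and −4.18 in shControl, where it was not well above background. On the clone arrays it was higher by at least 3.23-fold (means −2.46 and −4.95, adjusted p = 0.013), a bound set by the dimmest signals well above background on the control arrays. Like Mrpl37, Mrps5 entered the test only through the clone arrays. The adjusted p of Mrps5 and its place among the 13 rises use control signals that were not well above background. With probes well above background on all 6 arrays required, neither gene was measured. The remaining rises were Mrpl19, Mrpl46, Mrpl47, Mrps2 and Mrps11, with log2 fold changes of 1.16 to 1.83 and adjusted p values of 0.0208 to 0.0295.

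The falls shared an order of the groups, whose parts were common among all genes. Clone 3 was above clone 2 in 73% of all genes, and shControl replicate 1 above replicate 2 in 73.9%. Mrpl49, a mitochondrion-specific large-subunit protein, read 3.34 and 3.26 in clone 2, 4.24 and 3.99 in clone 3, and 6.19 and 5.18 in shControl, lower by 1.98 log2 units (log2 fold change −1.98, SE 0.36, adjusted p = 0.013). Mrpl22, whose bacterial relative lines the exit tunnel, read 3.37 and 3.59 in clone 2, 4.51 and 4.08 in clone 3, and 6.19 and 5.27 in shControl, and its log2 fold change was −1.84 (SE 0.36, adjusted p = 0.0145). Mrpl58, a peptidyl-tRNA hydrolase of the large subunit that can release stalled chains, read 3.77 and 3.71 in clone 2, 4.97 and 4.65 in clone 3, and 6.89 and 5.16 in shControl, and its log2 fold change was −1.74 (SE 0.48, adjusted p = 0.0271). In all 3 genes the clone 2 arrays were lowest, the clone 3 arrays came next, and shControl replicate 1 was highest. Mrpl55 (3.17, 3.08 in clone 2, 4.09, 3.73 in clone 3, and 5.71, 4.57 in shControl) and Mrpl23, a relative of an exit-tunnel protein (4.45, 4.65 in clone 2, 5.71, 5.40 in clone 3, and 7.18, 5.996 in shControl), had the same order. Their log2 fold changes were −1.62 (adjusted p = 0.0194) and −1.53 (adjusted p = 0.0223). Without shControl replicate 1 Mrpl58 had −0.88 (adjusted p = 0.0527), Mrpl55 −1.06 (adjusted p = 0.0424) and Mrpl23 −0.94 (adjusted p = 0.0492).

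Mrps34, a mitochondrion-specific small-subunit protein, read 2.82 and 2.83 in clone 2, 3.85 and 3.30 in clone 3, and 5.29 and 4.13 in shControl. Mrpl52 read 4.87 and 4.73 in clone 2, 5.81 and 5.65 in clone 3, and 7.53 and 5.98 in shControl, and Mrpl11, whose bacterial relative lies at the base of the factor-binding stalk, read 3.22 and 3.44 in clone 2, 4.36 and 3.91 in clone 3, and 5.73 and 4.70 in shControl. In each, both clones lay below both controls, by the least margin (5.81 on clone 3 replicate 1 against 5.98 on shControl replicate 2) in Mrpl52. Log2 fold changes were −1.51 for Mrps34 (adjusted p = 0.0246), −1.49 for Mrpl52 (adjusted p = 0.0335) and −1.49 for Mrpl11 (adjusted p = 0.022). Without shControl replicate 1 none of the 3 passed, with −0.93 for Mrps34 (adjusted p = 0.0701), −0.71 for Mrpl52 (adjusted p = 0.0641; −2.26 without shControl replicate 2) and −0.97 for Mrpl11 (adjusted p = 0.0587). The other 24 falls had log2 fold changes between −1.47 and −0.94.

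**Figure D3:**
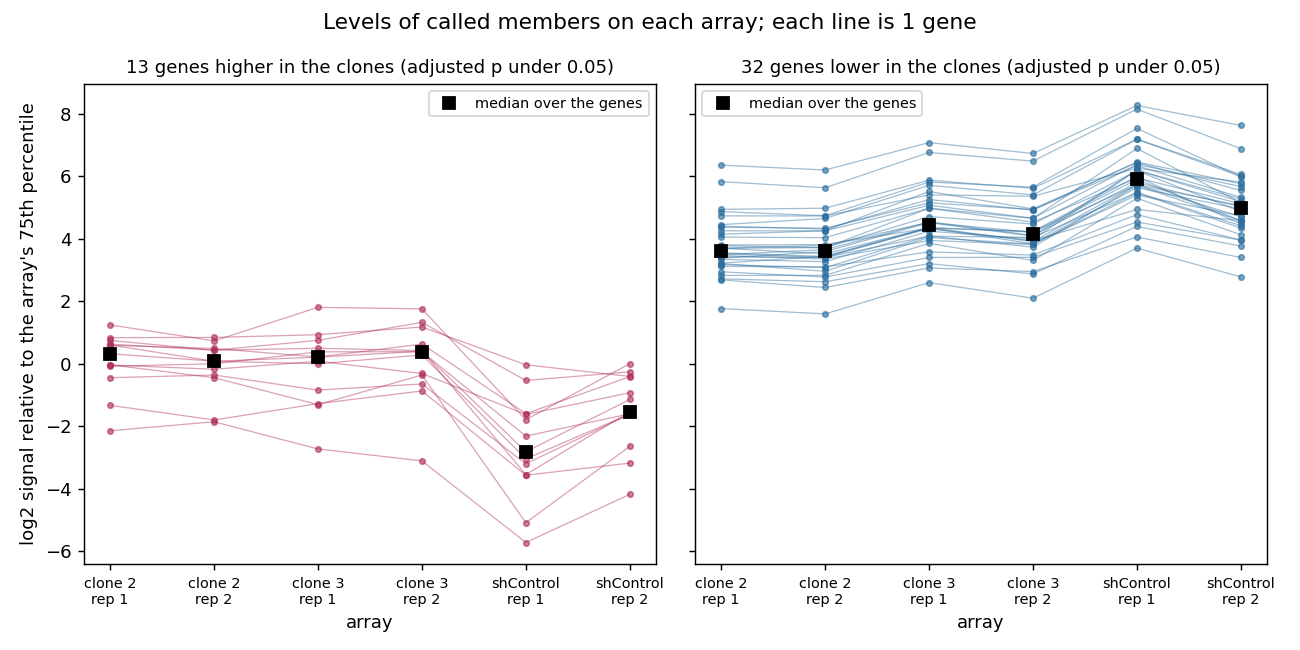
Log2 signal relative to the array's 75th percentile on each of the 6 arrays for the 13 genes higher (left) and the 32 genes lower (right) in the mean of the clones against shControl; each line is 1 gene and black squares are medians. The medians of the higher genes lie near 0 on the clone arrays and lowest on shControl replicate 1, while the lower genes keep nearly parallel lines with shControl replicate 1 at the top.

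Promoter windows of some genes that moved in opposite directions are shown. They are picked examples and do not represent either group. RefSeq windows of 300 bases (mostly upstream of the transcription start and ending just past it, GRCm38.p6) were found for 69 of the 78 genes, 75 windows in all. They were searched on both strands for GCGC, any base and TGCGC in a row (NRF1), CCGGAAG (ETS family), CACGTG (E-box) and AAGATGGCG (YY1), factors named for housekeeping and mitochondrial promoters, with capitals marking each match and no base shared by 2 matches in the windows printed. Mrpl37 (chr4:107066817-107067116, minus strand), Mrpl42 (chr10:95501900-95502199, minus strand), Mrps27 (chr13:99344536-99344835, plus strand) and Mrps11 (chr7:78782881-78783180, plus strand) rose and are the 4 genes called higher whose windows hold the YY1 letters. Mrpl46 (chr7:78783040-78783339, minus strand) also rose and is read from the other strand, its window sharing 141 bases with that of Mrps11. Mrpl58 (chr11:115403502-115403801, plus strand) fell and holds the ETS letters at 2 places.
Mrpl37: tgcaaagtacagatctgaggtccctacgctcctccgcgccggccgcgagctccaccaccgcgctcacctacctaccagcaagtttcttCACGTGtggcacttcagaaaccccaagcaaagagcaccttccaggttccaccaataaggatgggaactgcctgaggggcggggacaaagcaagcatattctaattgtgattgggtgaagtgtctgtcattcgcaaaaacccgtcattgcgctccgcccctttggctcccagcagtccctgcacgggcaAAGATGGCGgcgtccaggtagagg
Mrpl42: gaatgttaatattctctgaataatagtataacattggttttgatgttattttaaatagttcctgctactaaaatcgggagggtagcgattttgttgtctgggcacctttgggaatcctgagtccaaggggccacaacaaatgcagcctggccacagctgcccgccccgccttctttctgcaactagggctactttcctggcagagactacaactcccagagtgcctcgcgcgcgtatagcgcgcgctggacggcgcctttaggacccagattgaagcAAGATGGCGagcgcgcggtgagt
Mrps27: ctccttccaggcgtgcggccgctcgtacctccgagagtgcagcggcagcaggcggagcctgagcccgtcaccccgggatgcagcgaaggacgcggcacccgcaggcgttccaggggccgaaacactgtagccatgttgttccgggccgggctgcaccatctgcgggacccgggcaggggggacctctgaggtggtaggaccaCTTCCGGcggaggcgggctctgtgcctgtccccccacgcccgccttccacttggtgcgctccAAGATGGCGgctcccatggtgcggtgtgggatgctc
Mrps11: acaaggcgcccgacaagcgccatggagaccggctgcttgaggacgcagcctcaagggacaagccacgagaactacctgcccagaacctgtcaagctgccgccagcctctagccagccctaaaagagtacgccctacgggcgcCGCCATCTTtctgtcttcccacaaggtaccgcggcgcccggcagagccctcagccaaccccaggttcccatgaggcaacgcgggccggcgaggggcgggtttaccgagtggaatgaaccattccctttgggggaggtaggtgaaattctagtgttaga
Mrpl46: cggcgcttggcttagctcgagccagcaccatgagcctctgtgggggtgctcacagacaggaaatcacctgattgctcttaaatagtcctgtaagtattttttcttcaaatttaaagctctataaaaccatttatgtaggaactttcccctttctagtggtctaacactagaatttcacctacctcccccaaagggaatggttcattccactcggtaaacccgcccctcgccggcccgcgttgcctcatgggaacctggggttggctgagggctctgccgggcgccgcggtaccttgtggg
Mrpl58: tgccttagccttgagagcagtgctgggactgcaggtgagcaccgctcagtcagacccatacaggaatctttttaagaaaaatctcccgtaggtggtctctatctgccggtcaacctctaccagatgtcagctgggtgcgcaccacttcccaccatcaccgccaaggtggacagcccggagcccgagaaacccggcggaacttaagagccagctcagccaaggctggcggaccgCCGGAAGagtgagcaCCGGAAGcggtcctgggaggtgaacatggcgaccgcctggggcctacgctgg

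A gene was counted once if any of its windows held the letters, since the 32 windows of genes called lower came from 27 genes, with 3 shifted windows for Mrpl2 and 4 for Mrpl48. The YY1 letters were in 4 of 12 genes called higher (33.3%), 1 of 27 genes called lower (3.7%), 11.6% of the 69 genes and 1.64% of all 27025 genes in the table. The ETS letters were in 1 of 12 genes called higher (8.33%), 13 of 27 called lower (48.1%), 37.7% of the 69 and 9.93% of all. The NRF1 letters were in 16.7% of the genes called higher, 14.8% of those called lower, 18.8% of the 69 and 5.19% of all, and the E-box in 8.33%, 11.1%, 7.25% and 8.09%. Per window the YY1 letters were in 1.4% and the ETS letters in 8.86% of all 32851 windows. The 1 gene called lower with the YY1 letters is not among the windows printed. All 27025 genes include genes not tested here. The sets follow the calls by each gene's brightest probe, and no difference between them was tested. A match describes these letters only. Windows of 24 of the genes overlap the window of a gene on the opposite strand, and in 1 pair, Mrpl46 and Mrps11, both are mitochondrial ribosomal protein genes. Mrpl46 read 0.59 and 0.49 in clone 2, 0.21 and 0.63 in clone 3 and −1.60 and −0.42 in shControl. Its neighbour Mrps11 read −0.04 and −0.18 in clone 2, 0.08 and −0.31 in clone 3 and −1.62 and −0.93 in shControl. Both genes were above both controls on all clone arrays, with log2 fold changes of 1.49 (adjusted p = 0.0247) for Mrpl46 and 1.16 (adjusted p = 0.0295) for Mrps11.

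Both subunits held rises and falls. Of 50 tested large-subunit genes 8 were higher and 24 lower (median log2 fold change −1.06), and of 25 small-subunit genes 5 were higher and 7 lower (median −0.68). By the lists used here, 29 large-subunit genes listed with bacterial relatives had 5 rises and 12 falls (median −0.80). The 21 listed as mitochondrion-specific, Mrps18a and Mrpl58 among them, had 3 rises and 12 falls (median −1.23). In the small subunit, 15 genes listed with bacterial relatives had 4 rises and 3 falls (median −0.13). The 10 listed as mitochondrion-specific, Mrps18b among them, had 1 rise and 4 falls (median −0.96). Of all genes 10.2% were higher and 30.4% lower, against 16% and 48% of the large-subunit and 20% and 28% of the small-subunit genes. With bacterial relatives, the shares were 17.2% and 41.4% (large) and 26.7% and 20% (small). For genes listed as mitochondrion-specific they were 14.3% and 57.1% (large) and 10% and 40% (small). The lists' medians stand beside −0.64 for all genes, and no difference between the lists was tested. Mrps36 was lower by 1.11 log2 units (log2 fold change −1.11, adjusted p = 0.0274).

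Of 8 genes named for their known roles, Mrps16 could not be tested, Mrpl45, Mrpl58, Mrps22 and Mrps34 were called lower, and Mrpl12, Mrps12 and Mrpl44 did not pass. Mrpl12, the relative of the bacterial stalk protein that recruits translation factors, read 2.62 and 2.24 in clone 2, 3.55 and 3.18 in clone 3, and 3.49 and 2.66 in shControl, with a log2 fold change of −0.18 (adjusted p = 0.682). Mrps12, related to the bacterial protein of decoding fidelity, read 3.44 and 3.49 in clone 2, 4.79 and 4.46 in clone 3, and 4.70 and 3.29 in shControl, with 0.05 (adjusted p = 0.923). In both genes the shControl range overlapped the clone arrays, and for Mrps12 the sign turned negative without shControl replicate 2 (−0.65) or clone 3 replicate 1 (−0.03). Mrpl44, a large-subunit protein with a ribonuclease III fold, read 0.99 and 0.94 in clone 2, 0.72 and 0.32 in clone 3, and 1.05 and 1.67 in shControl (log2 fold change −0.61, adjusted p = 0.152). Mrpl45, which holds the ribosome to the inner membrane, read 2.71 and 2.62 in clone 2, 3.20 and 2.87 in clone 3, and 4.39 and 3.77 in shControl and was lower (−1.23, adjusted p = 0.0238). Mrps22, a small-subunit protein mutated in human mitochondrial disease, read 2.68 and 2.44 in clone 2, 3.06 and 2.95 in clone 3, and 4.05 and 3.40 in shControl and was also lower (−0.94, adjusted p = 0.0472), though without shControl replicate 1 it had −0.62 (adjusted p = 0.0939).

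Each clone was then set against the same 2 shControl arrays, so the comparisons share their controls. In clone 2, limma called 12 genes higher and 41 lower, where 10.2% of all genes were called higher and 33.8% lower (44% in either direction). The 12 were the rises named above other than Mrpl47. Among the rises well above background on at least 1 control array, the largest in clone 2 were Mrpl37 (log2 fold change 3.62, adjusted p = 0.0153) and Mrpl9 (3.13, adjusted p = 0.0142). Mrpl37 was so on 1 of 2 control arrays. Mrps5, dim in shControl, has no rank. Its largest falls were Mrpl49 (−2.38, adjusted p = 0.0116), Mrpl58 (−2.28, adjusted p = 0.0188) and Mrpl22 (−2.25, adjusted p = 0.0128). The members' median was −1.25 and that of all genes −0.80. Quantile normalization gave 10 higher and 3 lower (all genes 10.4% and 15.5%), and the deposited values 13 and 10 (9.74% and 22.1%). No scaling gave 21 and 0 (30.6% and 0.647%). By limma at an unadjusted p under 0.05 no scaling gave 24 and 0, against 40.7% and 1.37% of all genes. Without clone 2 replicate 1 the counts were 7 and 8 (6.57% and 11.4% of all genes), without clone 2 replicate 2 they were 9 and 10 (6.99% and 15.7%), and without either clone 3 array they were 8 and 18 (7.18% and 16.1%). Without shControl replicate 1 Mrpl37 had 2.41 (adjusted p = 0.0273) and Mrpl58 −1.41 (adjusted p = 0.0251).

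In clone 3, 8 genes were called higher and 0 lower, where 4.35% of all genes were called higher and 4.68% lower (9.02% in either direction); by limma at an unadjusted p under 0.05, 18 of the 76 were higher and 14 lower, against 10.7% and 25.2% of all genes. The 8 were Mrpl37, Mrpl9, Mrpl42, Mrpl28, Mrps9, Mrpl1, Mrps27 and Mrpl47. Their largest log2 fold changes were 3.03 for Mrpl37 (adjusted p = 0.0471), 3.00 for Mrpl9 (adjusted p = 0.0334) and 2.68 for Mrps9 (adjusted p = 0.0368). The value of Mrpl37 again uses a control signal not well above background. The lowest values, which did not pass, were those of Mrpl49 (−1.57, adjusted p = 0.0541) and Mrpl22 (−1.44, adjusted p = 0.0654). The members' median was −0.63 and that of all genes −0.46. Without shControl replicate 2, 15 genes were higher and 41 lower (12.9% and 40.2% of all genes), and without shControl replicate 1 Mrpl37 had 1.81 (adjusted p = 0.0791), Mrpl9 1.99 (adjusted p = 0.0421) and Mrps9 1.78 (adjusted p = 0.046). With either clone 3 array left out the calls were lost, as for all genes. The members' median relative to all genes was −0.258 without replicate 1 and −0.06 without replicate 2. Without a filter on dim probes 2 were higher and 0 lower (0.928% and 0.974% of all genes). By limma at an unadjusted p under 0.05 these were 16 and 13 (6.98% and 30.4%). With normexp 16 were higher and 11 lower (6.67% and 25.1% of all genes).

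The clones differed from each other in the same direction for most genes, on 1 slide and with no control array in the difference. Both clone 3 arrays were above both clone 2 arrays for 64 of the 76 genes and below both for 3, against 58.9% and 16.4% of all genes. The median of clone 3 minus clone 2 was 0.65, and that of all genes 0.38. This excess of 0.27 was 0.04 with quantile normalization and 0.04 with the deposited values. No gene passed the test in either direction, where 0.345% of all genes were called higher and 0.922% lower (1.27% in either direction); by limma at an unadjusted p under 0.05, 4 were higher and 0 lower, against 5.51% and 6.39% of all genes. Fitted on the 4 arrays of that slide alone, 0 passed, and 50 were higher and 1 lower at an unadjusted p under 0.05, against 30.7% and 9.88% of all genes. The largest differences were those of Mrps12 (1.16, SE 0.49, adjusted p = 0.383) and Mrpl24 (1.08, SE 0.55, adjusted p = 0.383). Mrpl24, an early-assembling large-subunit protein in bacteria, read 5.20 and 5.13 in clone 3 and 4.04 and 4.13 in clone 2, with 6.83 and 5.06 in shControl, so clone 3 lay between the other groups by its mean. In the other direction stood Mrps5 (−0.92, adjusted p = 0.385) and Mrpl37 (−0.59, adjusted p = 0.616).

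The sign of the change followed how bright a gene's probe was. Ordered by the mean signal on the clone 3 arrays, which do not enter clone 2 minus shControl, the dimmest 26 genes (−2.92 to 3.01) held all 12 genes called higher in clone 2, 3 of those called lower, and a median of 0.79. The middle 25 had 0 higher and 18 lower (median −1.54), and the brightest 25 had 0 higher and 20 lower (median −1.54). Across the 76 genes the log2 fold change in clone 2 and the clone 3 signal correlated at r = −0.82 (Spearman's rho −0.74), against r = −0.11 (rho −0.10) across all 21474 genes. For nuclear subunits of the respiratory complexes r was −0.52 (rho −0.52, 82 genes) and for cytosolic ribosomal proteins −0.37 (rho −0.51, 79 genes). For clone 3 minus shControl against the clone 2 signal, r was −0.73 (rho −0.61) over the 76 genes, −0.46 (rho −0.56) for the respiratory subunits and −0.44 (rho −0.65) for cytosolic ribosomal proteins, whose rho was the farthest from 0. Genes are not independent replicates, all values share the array scaling, and both clones share a slide, so these are descriptions. Brightness is a property of the probe as well as of the transcript.

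The 2 control arrays also differed from each other across the 76 genes. shControl replicate 1 was above replicate 2 for 58 of 76 genes, against 73.9% of all genes. It was the higher control for all 32 genes called lower, and the lower control for 12 of the 13 called higher, Mrps2 being the exception. Both sets were called against these same 2 arrays, so the last 2 counts are not independent of the calls. The difference between the control arrays and the difference clone 3 minus clone 2, which have no array in common, correlated at r = 0.78 (rho 0.77) over the 76 genes and at 0.51 (rho 0.55) over all genes. For nuclear subunits of the respiratory complexes r was 0.85 (rho 0.78), and for cytosolic ribosomal proteins r was 0.42 (rho 0.55). Clone 3 was above clone 2 in 66 of the 76 genes, against 73% of all genes. In 58 of the 76 genes the clone 3 mean lay between the clone 2 and shControl means, a share not counted over all genes. This held for all 41 genes called lower in clone 2, but those were chosen for a low clone 2 mean, which favours this order. What the arrays share along this order was not tested.

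**Figure D4:**
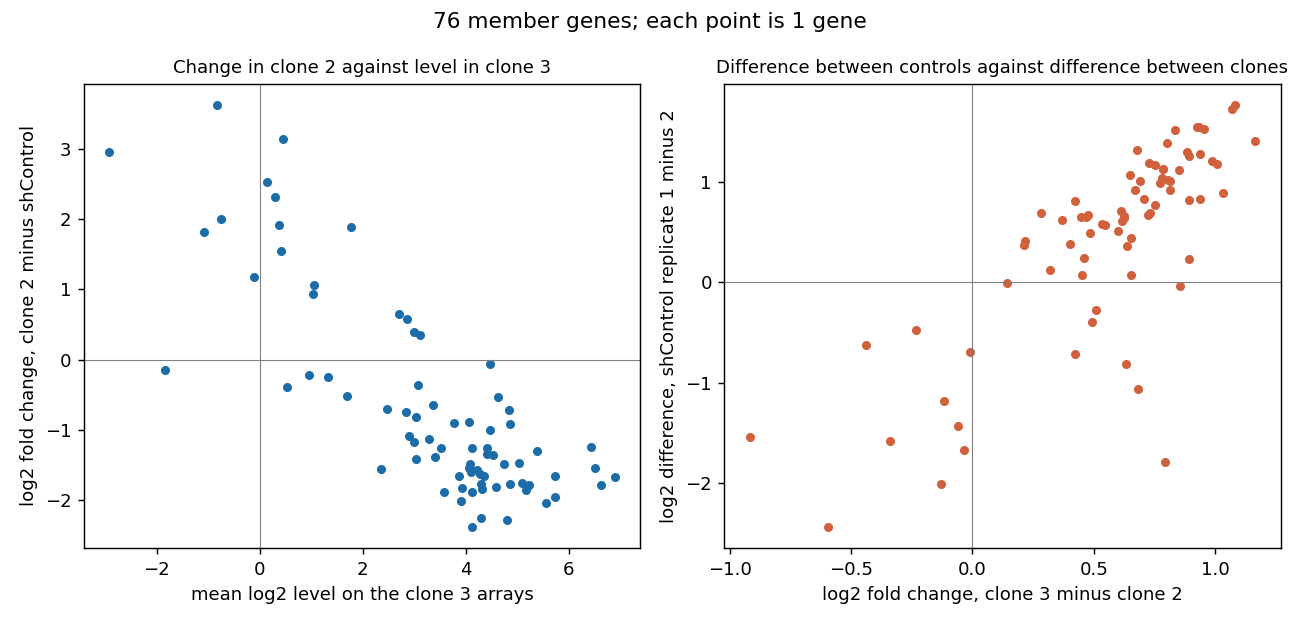
Left, log2 fold change of clone 2 minus shControl against the mean log2 signal on the clone 3 arrays; right, shControl replicate 1 minus replicate 2 against clone 3 minus clone 2, all in log2 units, with 1 point for each of the 76 genes. The left cloud slopes down (r = −0.82) with all large rises at low signal, and the right cloud slopes up (r = 0.78).

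Different probes of a gene often disagreed, with the brighter one more often the lower. Of 21 genes with 2 tested probes, 12 had log2 fold changes of opposite sign for the mean of the clones, 10 with the brighter probe negative and the dimmer positive and 2 the other way, and 13 differed in sign or by over 1 log2 unit, the 13th being Mrpl47, by signals not well above background in shControl. The dimmer probe had the higher fold change in 17 of 21, by a median of 0.77 over all 21. Mrps23 had −1.17 by its brighter and 2.01 by its dimmer probe, Mrps26 −0.99 and 1.33, and Mrpl22 −1.84 and 0.11. Among the 13 genes with such a disagreement, Mrpl4 (−1.34 and 0.22), Mrpl27 (−1.47 and 0.09), Mrps33 (−0.98 and 0.12) and Mrpl22 were called lower by the brighter probe while the dimmer probe was positive. Mrps7 (−0.96 and 0.37), Mrps18b (−0.41 and 0.36), Mrpl10 (−0.34 and 0.12) and Mrps17 (−0.13 and 0.31) had opposite signs without a call by the brighter probe. The 2 reverse cases were Mrpl15 (0.66 and −1.04) and Mrps2 (1.17 and −0.73), so the rise of Mrps2 rests on its brighter probe. Mrpl47 rose by its brighter probe (1.18). Its dimmer probe was dim on both shControl arrays, so only a bound can be given, higher in the clones by at least 3.5-fold (means −2.50 and −5.54). Mrpl49 was negative by both (−1.98 and −1.30).

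**Figure D5:**
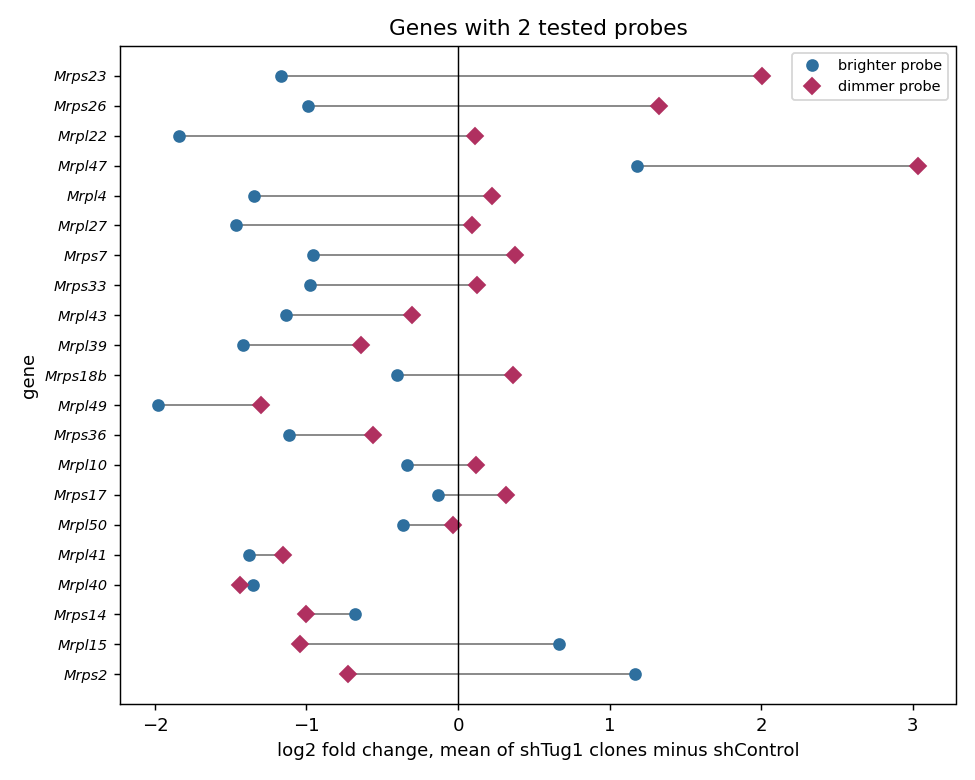
Log2 fold change (mean of the shTug1 clones minus shControl) of the brighter (circle) and the dimmer (diamond) probe of the 21 genes with 2 tested probes, joined by a line. The lines of 12 genes cross 0, and in 17 genes the diamond lies to the right of the circle; the diamond of Mrpl47 uses control signals not well above background.

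Other genes of mitochondrial translation were counted in the mean of the clones against shControl. Over the 62 tested genes of 4 lists, 8 were higher and 18 lower (12.9% and 29%), with 10.2% and 30.4% of all genes as above. Quantile normalization gave 7 and 7 (11.3% each, against 11.5% and 14.6% of all genes). No scaling gave 26 and 0 (41.9% and 0%, against 29.2% and 0.554%). Leaving out single arrays also changed the counts, which were lowest without clone 3 replicate 2 and highest without shControl replicate 2. Of 5 ribosome proteins under other symbols, 0 were higher and 3 lower by limma. At an unadjusted p under 0.05 the counts were also 0 and 3, against 12.6% and 40.3% of all genes. Gadd45gip1, a large-subunit protein, changed by −1.96 (adjusted p = 0.0169) and Dap3, a GTP-binding small-subunit protein, −1.48 (adjusted p = 0.0271; 0.27 as a mean of its probes). Of 24 assembly factors 5 were higher and 5 lower (20.8% each). Among the rises, Mterf3, Rcc1l, Ddx28 and Mrm2 entered the test only through the clone arrays. With probes well above background on all 6 arrays required, 2 of 20 were higher and 7 lower. These are 10% and 35%, against 8.63% and 39.5% of all genes. The rises included Mrm2, dim on both controls, so only a bound can be given, at least 0.893-fold (means −4.475 and −6.419). Such a bound does not show a rise, and the call of Mrm2 rests on dim control signals. Mrm2 is also counted in the 8 higher genes of the 4 lists. Rcc1l, a guanine nucleotide exchange factor homologue, rose by 3.53 (adjusted p = 0.00979) and Mterf3, which acts in large-subunit assembly, by 3.67 (adjusted p = 0.033), each well above background on 1 of 2 control arrays. The value of Mterf3 was 1.29 without shControl replicate 1 (adjusted p = 0.0332) and 6.04 without shControl replicate 2 (adjusted p = 0.00287). Mtg2, an assembly GTPase, changed by −1.57 (adjusted p = 0.0209) and Mrm1, a ribosomal RNA methyltransferase, by −1.39 (adjusted p = 0.0265). With shControl replicate 1 left out, Gadd45gip1 had −1.29 (adjusted p = 0.0415), Dap3 −0.83 (adjusted p = 0.0557), Mtg2 −0.98 (adjusted p = 0.0417) and Mrm1 −0.82 (adjusted p = 0.0492).

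Of 15 translation factors 2 were higher and 5 lower. Taco1, an activator of Cox1 translation, was dim on both controls, so a bound is given, at least 1.94-fold higher in the clones (means −3.36 and −5.24, adjusted p = 0.0178). Taco1 entered the test only through the clone arrays, and its adjusted p uses control signals not well above background. So do its places among the 2 higher factors and the 8 higher genes of the 4 lists. With normexp its log2 fold change was −0.16. The initiation factor gene Mtif2 rose by 1.05 (adjusted p = 0.0368), whereas Mtif3, also an initiation factor gene, had −1.72 (adjusted p = 0.0183; 0.36 as a mean of its probes) and Slirp, an RNA-binding stabiliser of mitochondrial messengers, −1.71 (adjusted p = 0.0189). Of 18 aminoacyl-tRNA synthetases of mitochondria 1 was higher, Cars2 (1.43, adjusted p = 0.0466), and 5 were lower, among them Fars2 (−1.84, adjusted p = 0.0179) and Aars2 (−1.65, adjusted p = 0.0212). Leaving out shControl replicate 1 gave 0.69 for Mtif2 (adjusted p = 0.07) and 0.69 for Cars2 (adjusted p = 0.252; 2.17 without shControl replicate 2). Likewise Mtif3 had −1.09, Slirp −1.11, Fars2 −1.16 and Aars2 −0.998, all 4 still past the threshold. For comparison, 1 of 79 cytosolic ribosomal protein genes was higher and 53 lower (1.27% and 67.1%, median −1.14). Of 82 nuclear genes of respiratory complex subunits 5 were higher and 49 lower (6.1% and 59.8%, median −1.12). Among all genes 10.2% were higher and 30.4% lower. With quantile normalization 6 and 0 of the cytosolic genes (7.59% and 0%) and 7 and 3 of the respiratory ones (8.54% and 3.66%) passed. Of all genes 11.5% and 14.6% did. Leaving out single arrays also changed how many genes of both lists were lower. These counts were lowest without a clone 3 array and highest without shControl replicate 2. The share called higher was 17.1% of the mitochondrial ribosomal protein genes, 1.27% of the cytosolic ones and 6.1% of the respiratory subunits, and these differences were not tested.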

How the data were processed

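RNA from 6 cultures (2 each of shTug1 clone 2, shTug1 clone 3 and shControl) was hybridised in 1 colour (Cy3) to Agilent mouse arrays. The authors deposited scanner files with an intensity per spot; the submitters' processing notes name Agilent Feature Extraction 11.0.1.1 as the tool. The intensity used was the processed signal, from which background and a spatial trend had been subtracted per the file headers. The deposited values for 19819 probes are in log2; each column followed its own array at r of at least 0.9981, with medians of 9.009, 8.985, 9.106, 9.087, 9.13 and 9.125 for clone 2, clone 3 and shControl. Genes were not centred in it, and the sources used here do not give its normalization.

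Each array's processed signals were put on the log2 scale, and its own 75th percentile over 43020 gene spots was subtracted. Control spots and outlier spots were dropped, and repeated spots of a probe averaged. A probe was kept if well above background (at least 50% of its spots) on both arrays of at least 1 group, and each gene kept its brightest probe, giving 21474 genes. Symbols came from RefSeq by unversioned accession (27234 of 39429 probes, 20659 symbols). Of the 21474 genes tested, 15085 had a symbol. The other 6389 were accessions or probe names without one, and shares and medians of all genes include them. limma 3.58.1 in R 4.3.3 fitted 3 group means to all genes (3 residual and 4.69 prior degrees of freedom), two-sided, with p-values adjusted by Benjamini-Hochberg over the 21474 genes (threshold 0.05); every adjusted p in the text is from limma. An exact permutation of 4 against 2 arrays cannot go below a p of 0.0667 and was not used. Where no array of a side had a probe well above background, the fold is a bound, taken against whichever was higher on an array, the probe's signal or the dimmest signal marked well above background there. The number of arrays limits the precision, and p-values measure only the spread between these arrays.

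The genes and lists were chosen with earlier results of these data known. Named were the 8 largest rises and falls past the threshold for the mean of the clones, up to 3 per direction for each clone, genes dim on a whole side, genes with disagreeing probes, 8 genes with known roles, and up to 2 rises and falls of each translation list. Alternatives were quantile normalization, normexp (offset 50, on median signals because the files hold no mean signal), other filters on dim probes, the mean of a gene's probes, the deposited value table, a replicate block, leaving out each array, and, chosen after seeing the data, centring on the median gene and no scaling. Same-numbered arrays deviated together at r = −0.038 (clone 2 and shControl), 0.106 (clone 3 and shControl) and −0.089 (clone 3 and clone 2), so the numbers do not pair the samples. Simulated data with known changes were used to test the model.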

Additional observations from a re-analysis of the deposited data

Results flagged for a closer look

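Mrpl35, a relative of bacterial L35, lay below both controls in clone 2 and above both in clone 3: it read −2.02 and −1.65 in clone 3, −2.25 and −2.32 in clone 2, and −2.10 and −2.18 in shControl. Its log2 fold change against shControl was 0.30 in clone 3 (adjusted p = 0.532) and −0.15 in clone 2 (adjusted p = 0.718), and clone 3 minus clone 2 was 0.45 (adjusted p = 0.434). By limma none of the 3 passed, so the opposite positions describe these 6 arrays only.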

How the results depend on the processing

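All 76 genes rest on 2 arrays per group and on a scaling that moves the median gene, and slide as a block was not run against shControl because slide and hairpin coincide. Arrays left alone in a group are assumed to vary like the others. For the mean of the clones, quantile normalization gave 3 lower genes in place of 32 and the deposited value table (74 genes) 6; no scaling gave 22 higher in place of 13 and 0 lower. For clone 2, the lower genes numbered 3 with quantile normalization, 10 with the deposited table and 0 with no scaling in place of 41, and the higher ones 21 in place of 12 with no scaling. For clone 3, against 8 higher and 0 lower, normexp gave 16 and 11 (all genes 6.67% and 25.1%) and no filter 2 higher (0.928%). No scaling gave 20 higher (all genes 16.3%). With probes well above background on all 6 arrays required, 3 of 74 were lower (all genes 11.6%). With the deposited values 1 was lower (all genes 6.53%). The replicate block gave 1 lower gene in clone 3 (all genes 6.27%), and for the mean of the clones 13 higher and 35 lower (all genes 10.5% and 30.1%). It moved no other count of called genes by over 1.5 times. Among the fold changes of single named genes 2 gained and 1 lost the call.

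The members' median relative to all genes turned from −0.258 to 0.107 with quantile normalization, 0.018 with normexp and 0.151 with the deposited table in the mean of the clones. In clone 2 it was −0.449, and 0.057 with quantile normalization, 0.097 with the deposited table and −0.14 with normexp. In clone 3 it was −0.164, and 0.073 with quantile normalization, 0.157 with normexp, 0.01 with no filter and 0.108 with the deposited table. Leaving out 1 array at a time gave, for the mean of the clones, 0 to 15 higher, 0 to 48 lower and medians of −0.307 to −0.142. For clone 2 it gave 7 to 15 higher, 8 to 51 lower and medians of −0.515 to −0.292, and for clone 3, 0 to 15 higher, 0 to 41 lower and medians of −0.258 to −0.013. For clone 3 minus clone 2 the counts were 0 throughout by limma (0 to 50 genes higher unadjusted) and the medians 0.231 to 0.359.

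Log2 fold changes of single genes turned sign as follows in the mean of the clones; the cause was not tested. With quantile normalization Mrps17 had 0.44, Mrps18b 0.42 and Mrpl12 0.41, and with the deposited table Mrps17 had 0.44, Mrps18b 0.42 and Mrpl12 0.41. With normexp Mrps17 had 0.071, Taco1 −0.16 and Tug1 −0.26. With the mean of a gene's probes Mrpl15 had −0.19, Mrps17 0.091, Mrps23 0.42, Mrps26 0.17, Dap3 0.27 and Mtif3 0.36. With no scaling Mrpl10 had 0.94, Mrps17 1.14, Mrps18b 0.87, Mrps23 0.10, Mrps26 0.28, Mrps33 0.30, Mrps7 0.32, Mrpl12 1.09, Mrpl45 0.048, Mrps22 0.33 and Mrpl44 0.66. Leaving out 1 array at a time, Mrpl12 ran from −0.594 to 0.234 (positive without shControl replicate 1), Mrps12 from −0.654 (without shControl replicate 2; −0.029 without clone 3 replicate 1) to 0.761, and Tug1 from −0.029 (without shControl replicate 1) to 0.358.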
